A study of Danio rerio with 4 samples.

Results

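Venous and lymphatic fate transcription factors were followed in the trunk endothelium of zebrafish embryos at 26 h post-fertilization (hpf). The set holds 5 genes, nr2f1b, nr2f2, prox1a, mafba and tfec, taken by symbol from the 36351 genes of the annotation that accompanied the count matrices, where their identifiers are LL0000020583, LL0000020584, LL0000022650, LL0000018526 and LL0000030211. They were picked by name rather than by a cut on a measured value, but with earlier results of these data known. None of them served to sort cells into classes.

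In veins, the nuclear receptor Nr2f2 (COUP-TFII) is known from the mouse for keeping venous identity by holding back Notch signalling, and zebrafish nr2f1b, a receptor of the same family, has been linked to vein identity as well. Lymphatic vessels arise largely from veins, and in the mouse the homeodomain factor Prox1 specifies lymphatic endothelium, for which zebrafish prox1a is used as an early marker. Mafba is a basic leucine zipper factor required for lymphatic development in zebrafish, and Tfec belongs to the MiT family of basic helix-loop-helix leucine zipper factors, with known roles in zebrafish pigment cells and in the endothelial niche of haematopoietic cells.

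The study asked how miR-128, a microRNA of endothelial cells (ECs), acts in the endothelium on the diversity of the nascent haematopoietic stem and progenitor cells (nHSPCs) that emerge from it. Single-cell RNA sequencing (10x Genomics, 3′ chemistry) was done on GFP+ cells sorted from Tg(kdrl:GFP) zn1 embryo tails, which hold the aorta-gonad-mesonephros region and in which the promoter of the vascular receptor gene kdrl drives GFP. There was 1 library in each of 4 groups, each from pooled embryos at 26 hpf. WT embryos were the control, the miR-128 mutant was without miR-128-1 as well as miR-128-2, and in csnk1a1 g3UTR and jag1b g3UTR embryos Cas9 mRNA with guide RNAs had been injected to mutate the miR-128 responsive element in the 3′UTR of csnk1a1 or of jag1b.

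The matrices held 9380 to 12918 cell barcodes and 69980329 to 144258953 unique molecular identifiers (UMIs) per library, and 41758 of 43568 barcodes passed the filters. The median UMI count per cell ranged from 10489.5 (WT) and 9597 (miR-128 mutant) down to 7711.5 and 5711 in csnk1a1 and jag1b g3UTR embryos. Any pair of libraries had 26 to 55 cell barcodes in common. Cells were assigned to classes by fixed marker lists after each had been thinned to 1500 UMIs, which left 29906 ECs, of which 18621 were venous-lymphatic ECs (at least 3 of stab1, stab2, mrc1a, lyve1b, dab2, ephb4a and flt4). Arterial ECs numbered 360 to 533 per library, tip ECs 252 to 401, haemogenic ECs 26 to 46 and ECs of no subtype (other ECs) 1750 to 2542. Venous-lymphatic is a range of marker counts rather than a discrete type, since 4736 of its cells had just 3 of the markers and 3195 other ECs had 2 of them.

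Most of the UMIs of 4 of the 5 genes lay in venous-lymphatic ECs, whereas those of nr2f1b did not. Of the UMIs found in classified cells, venous-lymphatic ECs held 80.0% for nr2f2, 76.3% for tfec, 72.5% for mafba and 60.3% for prox1a. The class itself made up 18621 of the 39709 classified cells (unassigned cells included), from 44.1% in the miR-128 mutant to 52.1% in jag1b g3UTR. A gene spread evenly over cells would thus also have a large part of its UMIs there. Of the 4 genes, prox1a lay closest to that share. The genes differed in abundance, with 107687 UMIs for mafba, 49002 for tfec, 27076 for nr2f2, 3342 for prox1a and 160 for nr2f1b over all kept cells. As CPM (UMIs of a gene scaled to the total UMIs of the class), which in this 3′ chemistry do not scale with transcript length, mafba was the most and nr2f1b the least abundant in venous-lymphatic ECs of every library.

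**Figure D1:**
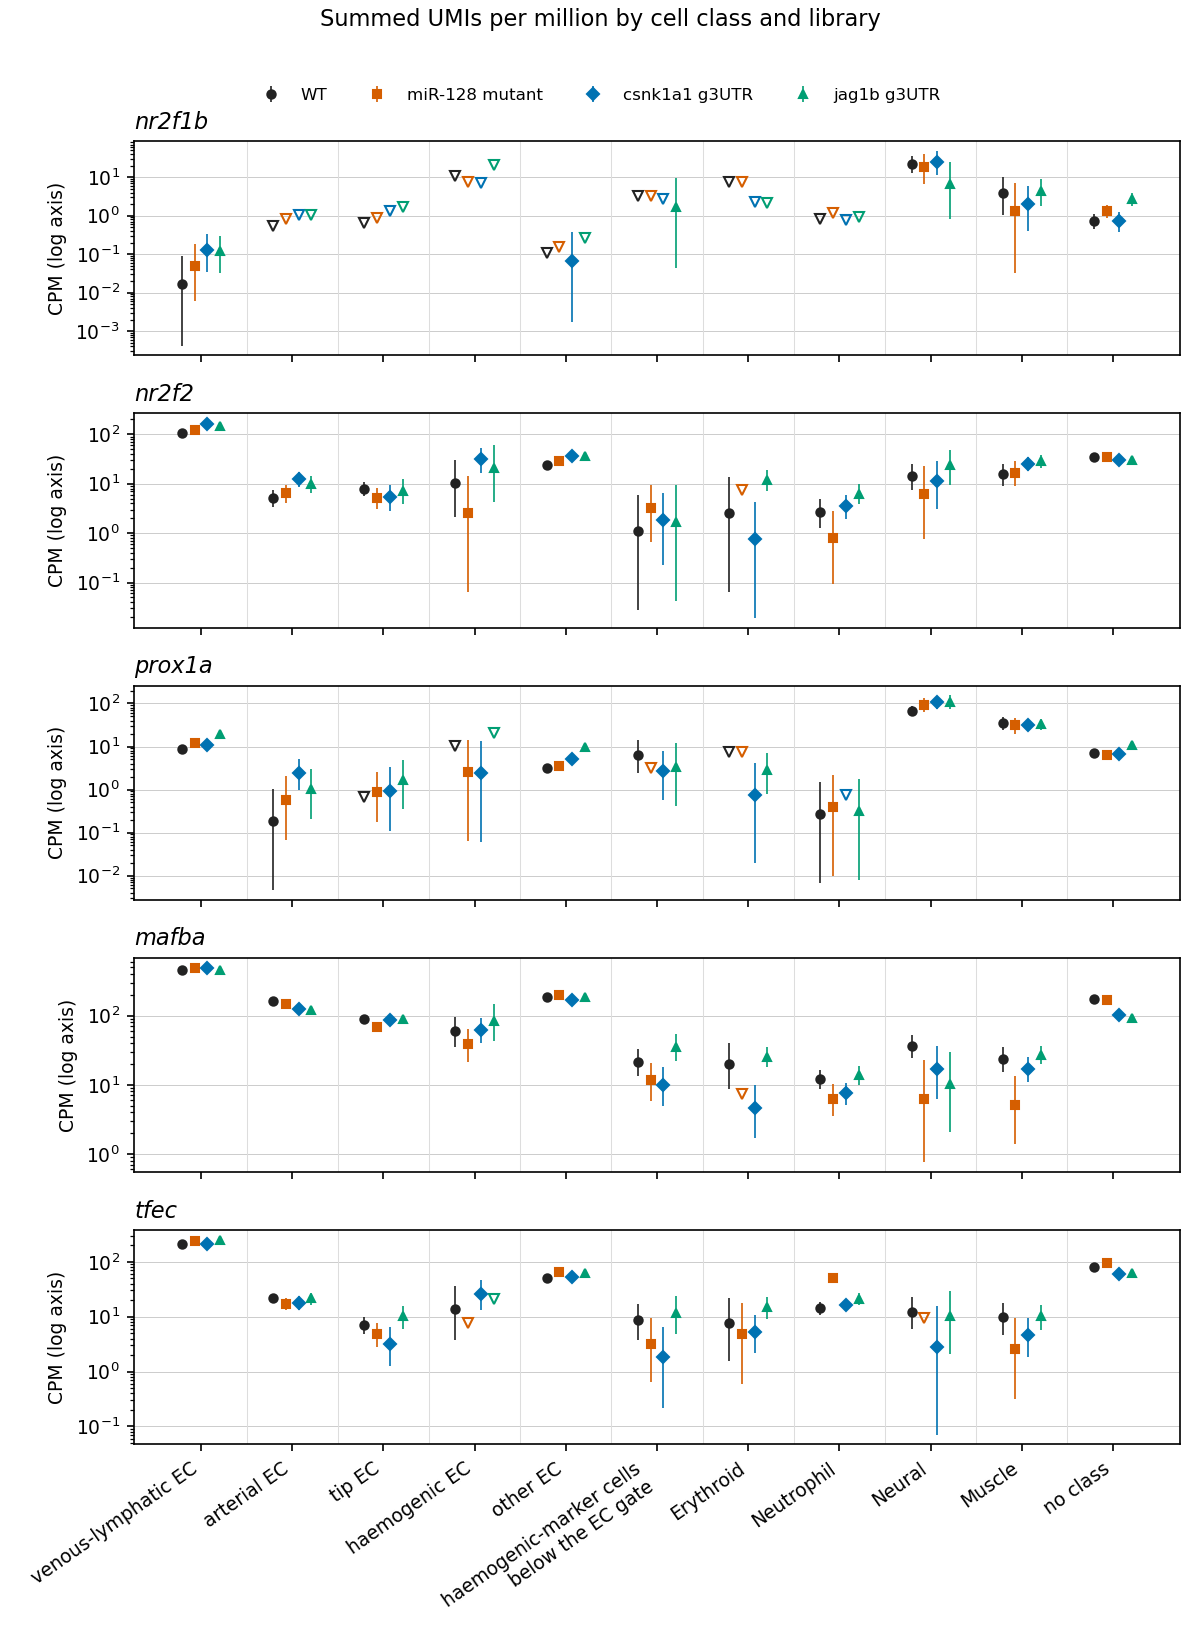
Level of each gene by cell class and library. The y axis gives CPM on a log scale, the x axis the cell classes, colours the 4 libraries, bars the exact Poisson 95% interval (counting error only), and open triangles the limit that 0 UMIs allow (3 counts). nr2f2, mafba and tfec stood highest among ECs in the venous-lymphatic class, with mafba still at 122.9 to 164.9 CPM in arterial ECs, prox1a reached 68.2 to 109.1 CPM in neural cells, and nr2f1b was seen mainly in neural, muscle and unassigned cells.

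nr2f2, the venous nuclear receptor, was far higher in venous-lymphatic than in arterial ECs of every library. In venous-lymphatic ECs it measured 107.7 CPM in WT, 120.9 CPM in the miR-128 mutant and 163.5 and 148.3 CPM in csnk1a1 and jag1b g3UTR embryos. In arterial ECs it measured 5.07, 6.40, 12.3 and 9.87 CPM in the same order, from 23 to 35 UMIs. The venous-lymphatic level was 21.3, 18.9, 13.3 and 15.03 times the arterial level. Tip ECs, the migrating front cells of sprouts, held 5.15 to 7.97 CPM, and other ECs 23.6 to 36.0 CPM. Haemogenic ECs, from which nHSPCs bud, gave 2.57 to 31.2 CPM from 1 to 13 UMIs, so their order relative to arterial and tip ECs could not be set.

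tfec, the MiT-family factor, followed a similar order. Venous-lymphatic ECs held 209.2, 240.2, 211.3 and 245.5 CPM in the same order of libraries, against 22.1, 17.0, 17.9 and 21.5 CPM in arterial ECs. The venous-lymphatic level was 9.47, 14.2, 11.8 and 11.4 times the arterial one. Tip ECs were lower than arterial ECs in each library, at 3.16 to 10.1 CPM. Outside the endothelium, the 6 to 8 macrophages per library held 404 to 552 CPM of tfec, above the venous-lymphatic level in every library, and neutrophils held 14.2 to 49.8 CPM. Within venous-lymphatic ECs the summed macrophage markers reached 1.53 to 9.49 CPM, and the part of such cells in the tfec level was not tested.

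mafba, the basic leucine zipper factor, was the most abundant and the most widely spread over EC subtypes. It measured 451.7, 489.0, 488.6 and 456.9 CPM in venous-lymphatic ECs and 164.9, 150.2, 124.8 and 122.9 CPM in arterial ECs. Within each library the venous-lymphatic level was 2.74, 3.26, 3.91 and 3.72 times the arterial one. Other ECs came next at 170.1 to 197.9 CPM, above the arterial value of the same library in all 4, and tip ECs lay at 68.6 to 91.0 CPM. Haemogenic ECs had 38.6 to 84.0 CPM, lower than tip ECs in all 4 libraries but from only 12 to 26 UMIs each. Notochord cells also held mafba, at 44.4 to 133.6 CPM, as did macrophages (6 to 8 per library), at 28.2 to 191.4 CPM. Erythroid cells had 0 to 25.5 CPM.

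prox1a, the lymphatic homeodomain factor, was rare in ECs. Venous-lymphatic ECs gave 8.93, 11.9, 10.7 and 19.2 CPM, from 336 to 644 UMIs per library. In arterial ECs just 1, 2, 7 and 3 UMIs were counted, which is 0.181, 0.556, 2.46 and 1.02 CPM, and the ratio of 4.35 in csnk1a1 g3UTR to 49.4 in WT was therefore poorly determined. Tip ECs had 0 to 3 UMIs and other ECs 3.21 to 9.76 CPM. The highest levels of prox1a were not endothelial: neural cells held 68.2, 93.4, 106.9 and 109.1 CPM and muscle cells 35.3, 31.0, 31.5 and 32.9 CPM. In venous-lymphatic ECs the neural marker list summed to 375 to 433 CPM, nearly all of it nova2 (365 to 420 CPM).

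nr2f1b, the paralogue of nr2f2, did not show the venous pattern its name in the set implies. Venous-lymphatic ECs held 1, 2, 4 and 4 UMIs, or 0.0165 to 0.128 CPM, and arterial, tip and haemogenic ECs held 0 in every library. In neural cells 18, 6, 9 and 2 UMIs were counted, which gives 21.9, 18.7, 25.3 and 6.82 CPM. Of its 159 UMIs in classified cells, 22.0% were neural, 9.43% in muscle and 56.6% in cells of no class. It fell below the count filter of every test, so that tests cover 4 of the 5 genes. The related receptor nr2f1a, by contrast, was found at 57.9 to 72.9 CPM in venous-lymphatic ECs and at 3.08 to 5.45 CPM in arterial ECs.

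Sums of UMIs per library and subtype were compared with an edgeR quasi-likelihood model with library as a block, which draws its error from the spread of 4 libraries of different genotype. Of 13377 genes tested between venous-lymphatic and arterial ECs, 53.0% were called at a Benjamini-Hochberg adjusted p below 0.05, 26.3% as higher and 26.7% as lower in venous-lymphatic ECs. All 4 tested members were among the genes called higher. prox1a had only 13 UMIs in arterial ECs against 2000 in venous-lymphatic ECs, over the 4 libraries. It thus entered the test mainly through the class where it was high, and the size of its difference was poorly determined. The log2 difference was 4.10 ± 0.13 (SE) for nr2f2 (adjusted p = 9.48e-21), 3.81 ± 0.31 for prox1a (2.63e-11), 3.54 ± 0.13 for tfec (1.87e-19) and 1.77 ± 0.08 for mafba (3.75e-17), each higher in 4 of 4 libraries. By size these were the 40th, 52nd, 62nd and 462nd largest of the 13377 differences. The order of nr2f2 and prox1a turned on the csnk1a1 g3UTR library, without which the difference was 4.64 for prox1a and 4.21 for nr2f2.

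The same 4 genes were higher in venous-lymphatic ECs than in tip ECs, haemogenic ECs and other ECs. In these contrasts 28.7%, 25.4% and 30.9% of all genes were called higher. Against tip ECs the difference was largest for tfec (log2 5.20 ± 0.16), followed by nr2f2 (4.30 ± 0.14), prox1a (4.12 ± 0.37, on 8 tip UMIs in all) and mafba (2.53 ± 0.09). Against haemogenic ECs it was 4.42 ± 0.29 for tfec, 3.28 ± 0.25 for nr2f2, 3.28 ± 0.16 for mafba and 3.07 ± 0.81 for prox1a (edgeR adjusted p = 0.00296), the last resting on 2 UMIs in haemogenic ECs in all. Without the csnk1a1 g3UTR library, which held most haemogenic UMIs of both genes, the difference was 5.75 for tfec and 4.02 for nr2f2. With cells classified at 750 UMIs, prox1a no longer passed against haemogenic ECs (adjusted p = 0.0632). Between arterial and tip ECs, where 9.82% of genes were called higher in arterial ECs, tfec (1.67) and mafba (0.76) passed, while nr2f2 (0.20, adjusted p = 0.639) and prox1a (0.31, adjusted p = 0.836) did not. For prox1a these classes held 13 and 8 UMIs in all, too few to tell them apart.

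Graded counts of the markers gave the same order without the subtype boundary. In ECs with 0 of the 7 venous-lymphatic markers nr2f2 lay at 4.63 to 7.28 CPM over the 4 libraries, in those with 2 at 36.9 to 46.5 CPM, in those with 4 at 112 to 164 CPM and in those with 6 at 124 to 205 CPM. tfec went from 8.79 to 12.8 CPM with 0 markers through 209 to 238 CPM with 4 to 230 to 277 CPM with 6. Most of the difference thus lay between 0 and 4 markers, and the ranges at 4 and 6 overlapped. mafba started far from 0, at 89.8 to 106 CPM without any venous-lymphatic marker, and stood at 456 to 494 CPM with 4. prox1a moved from 0.809 to 1.45 CPM with 0 markers to 8.35 to 19.1 CPM with 4. Along the arterial list the levels ran the other way, nr2f2 for example from 91.3 to 139 CPM with 0 markers to 16.3 to 37.8 CPM with 3.

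**Figure D2:**
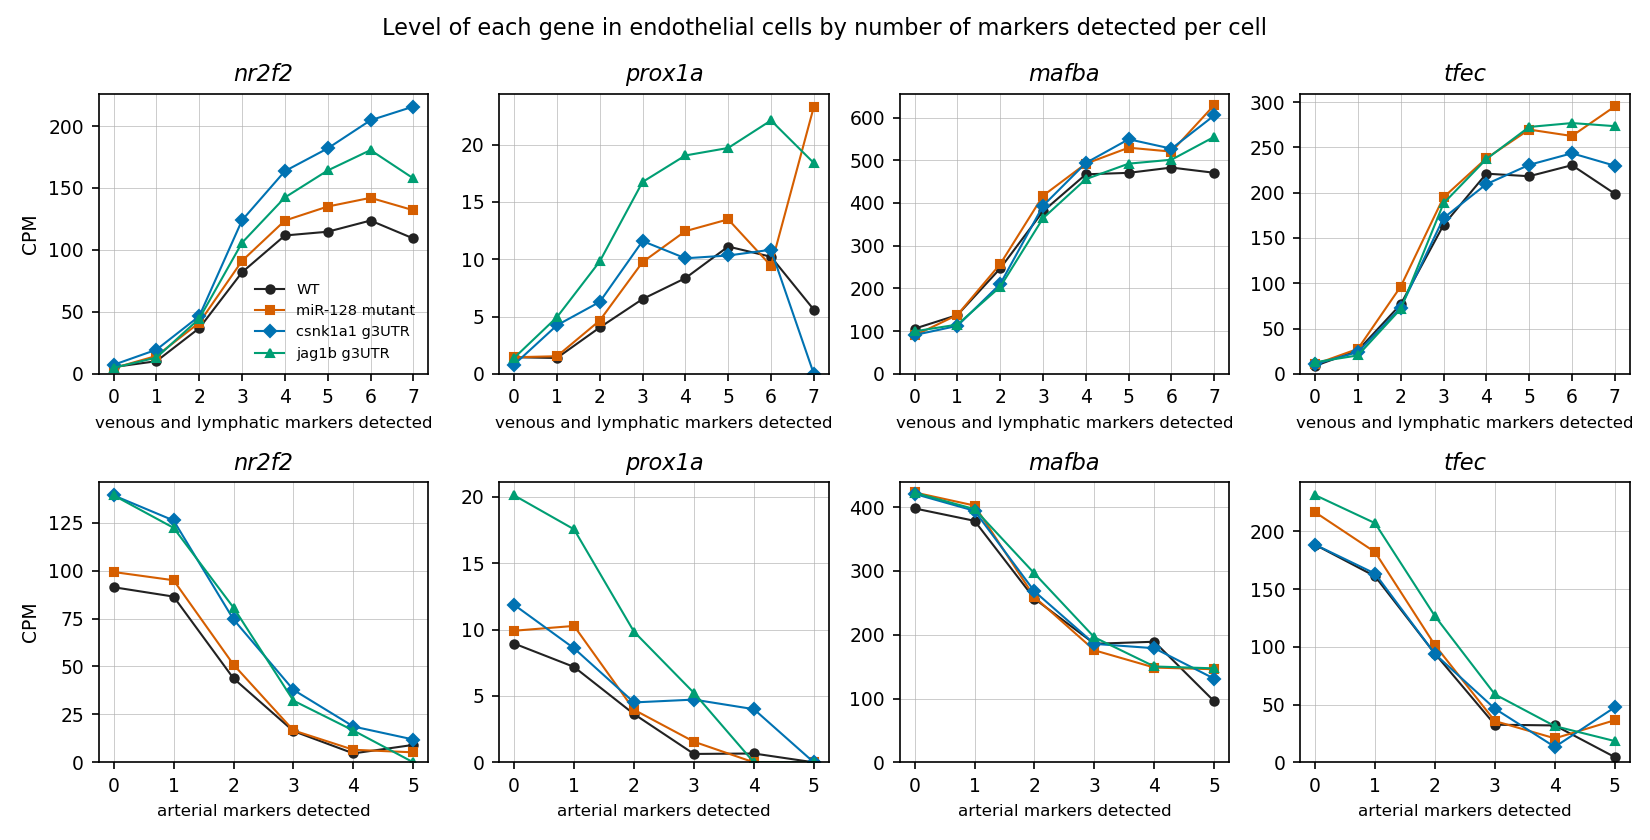
Level of each gene in ECs grouped by the number of venous-lymphatic or arterial markers detected after thinning. The x axis gives the number of markers, the y axis CPM on a linear scale from 0, and each line 1 library. nr2f2 ranged from 4.63 to 7.28 CPM with 0 venous-lymphatic markers to 112 to 164 CPM with 4, and fell along the arterial list.

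Relatives of the 5 genes were read from a fixed list of 15, of which 13 occurred in the annotation and 9 were tested between venous-lymphatic and arterial ECs. Among these 5 were higher in venous-lymphatic ECs, 1 was lower and 3 did not pass, with a median log2 difference of 1.16 against -0.03 over all genes. The receptor nr2f1a differed by 4.04 ± 0.17, close to nr2f2 in size. mafbb, the paralogue of mafba, differed by 1.62 and held 125 to 141 CPM in venous-lymphatic and 40.4 to 52.7 CPM in arterial ECs. prox1b, the paralogue of prox1a, held 30.1 to 49.6 CPM in venous-lymphatic and 11.7 to 21.1 CPM in arterial ECs, with a difference of 1.34. It was more abundant than prox1a itself, which held 8.93 to 19.2 and 0.181 to 2.46 CPM in these classes. Of the MiT relatives of tfec, tfe3a was higher (1.16) and mitfa lower (-0.95).

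Genes of lymphatic development did not move as a block. Of 22 listed, 17 were tested, 6 were higher in venous-lymphatic ECs and 5 lower, and the median difference was 0.12 on the log2 scale. The Vegfc co-receptors nrp2b (3.85) and nrp2a (3.83) stood highest, with nrp2b at 80.2 to 138 CPM in venous-lymphatic and 2.504 to 13.3 CPM in arterial ECs. Their ligand vegfc, the growth factor that drives lymphatic sprouting, was lower by -4.06, at 6.63 to 9.76 CPM against 102 to 177 CPM in arterial ECs. The homeobox gene hhex (1.28) and the angiopoietin receptor gene tek (1.19) were also higher, and the forkhead gene foxc1b was lower (-3.73). Of 22 posterior hox genes tested, 10 were higher and 6 lower, with a median of 0.16.

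The genes whose levels ran most like each member were found over 35 sums of a class in a library, from 10 classes, among 10678 genes. The classes reached outside the endothelium, to neural, muscle, epidermis, erythroid and neutrophil cells, and neural and muscle cells held the most prox1a. Members and sorting markers were left out of the ranking. These sums share libraries and depth, and the coefficients are descriptions. nr2f2 was most like nrp2b (Pearson r = 0.93), gdpd5b and rxraa (both 0.91), nrp2a (0.88) and cxcl12b (0.87). tfec was most like cndp2 and si:ch211-66e2.3 (both 0.93), npl (0.90), and mpp1 and exoc3l2a (both 0.89). mafba was most like tpte (0.97), with glula, tpcn3, plpp3 and ctsla at 0.96. prox1a was most like CU639469.1 (0.93), pik3r3b, nr6a1a and rassf8b (0.91 each) and ank2b (0.90). Among the members, mafba and tfec ran together at 0.75, nr2f2 and tfec at 0.73 and nr2f2 and mafba at 0.69, while prox1a reached 0.45 with nr2f2, -0.04 with mafba and 0.04 with tfec. nr2f1b was below the minimum level for this measure.

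Within the venous-lymphatic class, detection per cell was compared after thinning to 1500 UMIs. At that depth mafba was found in 46.0 to 49.3% of cells, tfec in 25.7 to 30.2%, nr2f2 in 14.8 to 21.1% and prox1a in 1.28 to 2.701%. Without thinning, at median depths of 6023 to 10556 UMIs, the shares were 82.8 to 93.3% for mafba, 66.4 to 77.0% for tfec, 48.8 to 59.8% for nr2f2 and 6.86 to 8.62% for prox1a. In erythroid cells, taken as a class that should lack these genes and sampled at medians of 9041 to 19405.5 UMIs, the unthinned shares reached at most 10.6% for mafba, 9.09% for tfec, 6.34% for nr2f2 and 2.82% for prox1a. The venous-lymphatic shares of all 4 genes lay above those erythroid limits, prox1a by the smallest margin. Other classes reached higher prox1a shares, 32.4 to 36.5% in neural and 23.7 to 27.5% in muscle cells. Mesenchyme cells (33 to 47 per library) reached at most 9.09% and epidermis cells (30 to 101) at most 5.94%. The prox1a share in venous-lymphatic ECs thus did not stand clear of every other class. Nor did the tfec share, as 87.5 to 100% of macrophages (6 to 8 per library) held tfec. mafba reached at most 71.4% of macrophages and 53.8% of notochord cells (12 to 20 per library). nr2f2 reached at most 31.4% of muscle cells, and 66.7% of pronephros cells (1 to 3 per library where found). Where prox1a was found it was mostly a lone UMI, in 70.6 to 81.2% of its positive cells, whereas positive cells averaged 3.52 to 5.49 UMIs for mafba, 2.36 to 3.12 for tfec and 1.94 to 2.21 for nr2f2.

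nr2f2, mafba and tfec were found in the same cells slightly more often than the product of their shares gives. The ratio of observed to expected cells at 1500 UMIs was 1.1 to 1.15 for nr2f2 with mafba, 1.06 to 1.18 for nr2f2 with tfec and 1.07 to 1.12 for mafba with tfec, above 1 in 4 of 4 libraries for each pair. Pairs with prox1a had no common direction over libraries, with 0.552 to 1.54 for nr2f2, 0.925 to 1.12 for mafba and 0.713 to 1.05 for tfec. In WT, 1947 of the venous-lymphatic ECs showed none of the 5 genes, 2346 showed 1, 1032 showed 2, 142 showed 3 and 1 showed 4.

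Venous-lymphatic ECs with and without a UMI of a member at 1500 UMIs were then compared over all other genes, with edgeR, the library as a block and full-depth sums. Cells called negative include many that hold the gene at full depth, as the unthinned shares show. In nr2f2-positive cells 3.14% of 16209 genes were called higher, and mafba (0.26 ± 0.02) and tfec (0.20 ± 0.03) were among them. In mafba-positive cells (7.66% higher) nr2f2 (0.42 ± 0.03) and tfec (0.31 ± 0.02) rose, and in tfec-positive cells (6.62% higher) nr2f2 (0.28 ± 0.03) and mafba (0.28 ± 0.02) rose. With cells classified at 750 UMIs the pair of nr2f2 and tfec no longer passed (adjusted p = 0.714 and 0.318). prox1a did not pass in any of the 3 (0.11, 0.18 and 0.12; adjusted p = 0.571, 0.0835 and 0.441), but in mafba-positive and tfec-positive cells it passed when classification used 3000 UMIs (adjusted p = 0.0107 and 0.00154), and in mafba-positive cells also without the WT library (0.0413).

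The genes rising most clearly with each of nr2f2, mafba and tfec were partly the same and included the sorting markers. With nr2f2 these were the mannose receptor mrc1a (0.21), a marker of the class, the glutamine synthetase gene glula (0.25), the endosomal adaptor gene rab11fip1b (0.27), mafba itself and the connexin gene cx30.3 (0.47 ± 0.04). cx30.3 measured 126.1, 56.1, 90.0 and 92.2 CPM in nr2f2-positive cells and 95.6, 35.5, 61.3 and 70.2 CPM in nr2f2-negative cells, higher within each library. With mafba, glula (0.32), CR383676.1 (0.10), nr2f2, rab11fip1b (0.27) and mrc1a (0.23) led, and with tfec, glula (0.33), rab11fip1b (0.26), the class marker dab2 (0.20), mafba and the receptor gene gpr182 (0.25). Of 12 relatives tested, 4 rose and 0 fell with nr2f2, 5 rose and 1 fell with mafba, and 4 rose and 0 fell with tfec. Of 16 lymphatic development genes tested, 6 rose and 1 fell with nr2f2, 6 rose and 3 fell with mafba, and 5 rose and 4 fell with tfec. Over all genes, 902 of 16209, 1368 of 16428 and 1053 of 16458 were called lower. Of the lymphatic genes vegfc was lower in all 3 comparisons, by log2 differences of -1.53, -1.06 and -1.30. The lower genes of lowest adjusted p, picked after their values were seen, were aqp8a.1, ndnf (-1.01) and esm1 (-0.78) with nr2f2. With mafba they were aqp8a.1, hmgb2a (-0.32) and rrm2 (-0.95), and with tfec aqp8a.1, stmn1a (-1.03) and pcna (-0.94). Cell-cycle markers summed to 379 to 708 (nr2f2), 369 to 761 (mafba) and 245 to 643 CPM (tfec) in positive cells. Negative cells held 543 to 1026, 658 to 1142 and 621 to 1100 CPM, and the difference was not tested.

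The prox1a-positive cells were few, at 70, 65, 60 and 142 of 5468, 4020, 3876 and 5257 venous-lymphatic ECs, from WT to jag1b g3UTR. In them the comparison called 2.66% of 16206 genes, 74 higher (0.457%) and 357 lower (2.2%). That split changed to 113 higher and 77 lower when libraries were scaled by the median of ratios in place of TMM. The number of calls was also carried by certain libraries, at 220 without WT, 173 without csnk1a1 g3UTR and 83 without jag1b g3UTR. nr2f2 (-0.13, edgeR adjusted p = 0.634), mafba (-0.09, 0.602) and tfec (-0.12, 0.558) were not among the 431 calls, and the median gene stood at -0.09. The edgeR fit took its spread from the trend over genes here, and its p-values were extremely small, so adjusted p-values from DESeq2 are given for single genes. The log2 differences and SEs printed beside them remain those of edgeR.

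mrc1b, a mannose receptor paralogue of mrc1a, measured 150.2, 131.8, 207.7 and 213.2 CPM in prox1a-positive cells, again from WT to jag1b g3UTR. In prox1a-negative cells mrc1b measured 75.8, 77.9, 77.1 and 82.8 CPM, and the edgeR log2 difference was 1.04 ± 0.09 (DESeq2 adjusted p = 1.25e-14). The chemokine gene cxcl12a lay at 824.7, 877.9, 519.4 and 520.8 CPM in positive and 481.3, 475.6, 317.4 and 242.5 CPM in negative cells (0.77 ± 0.06, DESeq2 adjusted p = 6.12e-24). exoc3l2a, a gene of the exocyst subunit family, lay at 612.4, 468.3, 477.8 and 678.7 CPM against 302.7, 311.1, 274.5 and 246.0 CPM (0.88 ± 0.06, DESeq2 adjusted p = 4.03e-11). DESeq2 put the log2 differences of mrc1b, cxcl12a and exoc3l2a at 1.14, 0.87 and 0.97. si:ch73-335l21.4 (0.64) and the Polycomb gene cbx7a (0.51) completed the 5 leading genes, both with a DESeq2 adjusted p of 1.93e-04. All 5 were higher in 4 of 4 libraries and passed in 12 of 12 alternative settings. They had been picked by lowest adjusted p from these same libraries, so neither count is independent evidence.

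Lower in prox1a-positive cells, and picked out after their values were seen, were the aquaporin gene aqp1a.1 (-1.28, DESeq2 adjusted p = 0.00134) and the lysosomal thiol reductase gene ifi30 (-0.80, 1.38e-08), both in 4 of 4 libraries. aqp8a.1 (-1.16) was lower in 3 libraries and higher in csnk1a1 g3UTR (556.3 against 439.6 CPM), and it did not pass in DESeq2 (adjusted p = 0.528). It was also lower in nr2f2-positive (-1.04), mafba-positive (-0.92) and tfec-positive cells (-1.24), in 4 of 4 libraries each. Of the lymphatic development genes, 16 were tested, and aplnrb (0.45), an apelin receptor gene, and nrp2b (0.33) rose in edgeR and in DESeq2 (DESeq2 adjusted p = 1.93e-04 and 0.0225). The cadherin gene cdh6 (-0.92) passed in edgeR but not in DESeq2 (adjusted p = 0.155). The relatives list had 0 calls in 12 tested, in edgeR and in DESeq2. Of 22 posterior hox genes edgeR called 0 higher and 6 lower, which became 3 lower under median-of-ratios scaling and 0 in DESeq2, where hoxa11a and hoxc11b (-0.85 and -0.74 in edgeR) had adjusted p-values of 0.267 and 0.0661. The summed neural markers were 351 to 446 CPM in prox1a-positive and 375 to 432 CPM in prox1a-negative cells. Nearly all of this sum in the class was nova2, and cells with 3 or more neural markers had been left out. It therefore cannot tell whether neural transcripts went with prox1a. Muscle markers summed to 16.2 to 66.8 CPM in positive and 22.1 to 84.6 CPM in negative cells.

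**Figure D3:**
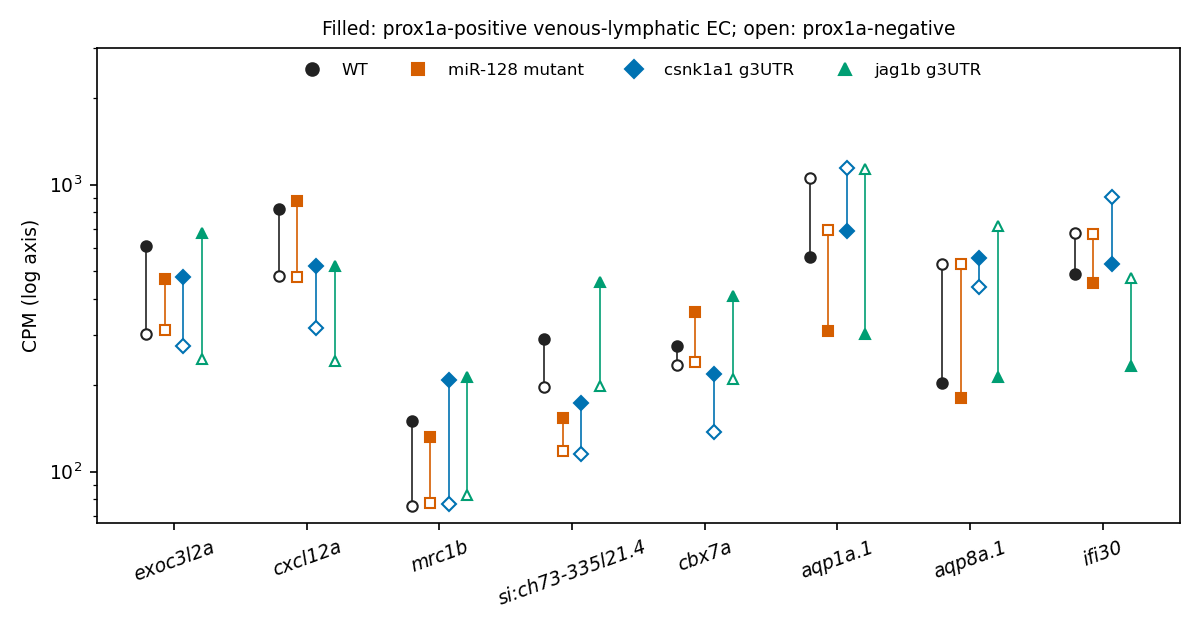
Levels of 8 genes in venous-lymphatic ECs with (filled) and without (open) a prox1a UMI at 1500 UMIs, by library. The y axis gives CPM. mrc1b ran from 131.8 to 213.2 CPM in positive and from 75.8 to 82.8 CPM in negative cells, while aqp8a.1 changed sides in csnk1a1 g3UTR.

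Levels were also compared between cycling and non-cycling venous-lymphatic ECs. Cycling cells, those with at least 2 of 16 cell-cycle genes at 1500 UMIs, made up 15.1, 10.9, 16.4 and 19.9% of the class, from WT to jag1b g3UTR. nr2f2 measured 77.2, 74.7, 106.6 and 106.6 CPM in cycling and 114.2, 128.1, 177.5 and 161.0 CPM in non-cycling cells. tfec measured 121.8, 122.7, 135.4 and 178.6 CPM in cycling and 227.6, 258.7, 229.9 and 265.8 CPM in non-cycling cells. Both were lower in cycling cells of each library.

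mafba in cycling cells lay at 334.3, 311.2, 355.0 and 360.5 CPM, below its 476.4, 516.8, 521.4 and 486.1 CPM in non-cycling cells. Of 16482 genes tested, 41.9% were called, 22.0% as lower in cycling cells. The log2 difference was -0.88 ± 0.07 for tfec (edgeR adjusted p = 1.39e-07), -0.72 ± 0.05 for nr2f2 (4.80e-08) and -0.61 ± 0.05 for mafba (2.53e-07). prox1a, at 9.21, 7.54, 15.2 and 24.1 CPM in cycling and 8.87, 12.6, 9.61 and 17.7 CPM in non-cycling cells, was higher in 3 libraries and lower in the miR-128 mutant, and its difference of 0.12 ± 0.16 did not pass (adjusted p = 0.568). Without the miR-128 mutant library it was 0.33 and passed (adjusted p = 0.0248), and without csnk1a1 g3UTR it was -0.02.

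Other marker lists moved with the cell cycle. The venous-lymphatic markers summed to 4543 to 6450 CPM in cycling and 6861 to 8738 CPM in non-cycling cells, tip markers to 349 to 417 against 179 to 347 CPM, and mesenchyme markers to 73.0 to 128 against 28.5 to 42.8 CPM. Their part in the lower member levels was not tested. Of 12 relatives, 6 fell and 2 rose in cycling cells, among the former nr2f1a (-0.45), prox1b (-0.40) and mafbb (-0.17). Of 23 posterior hox genes, 11 rose and 6 fell, with hoxb13a (2.93), hoxc13a (2.42), hoxc13b (2.35) and hoxa13b (2.16) showing the largest rises of the list.

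**Figure D4:**
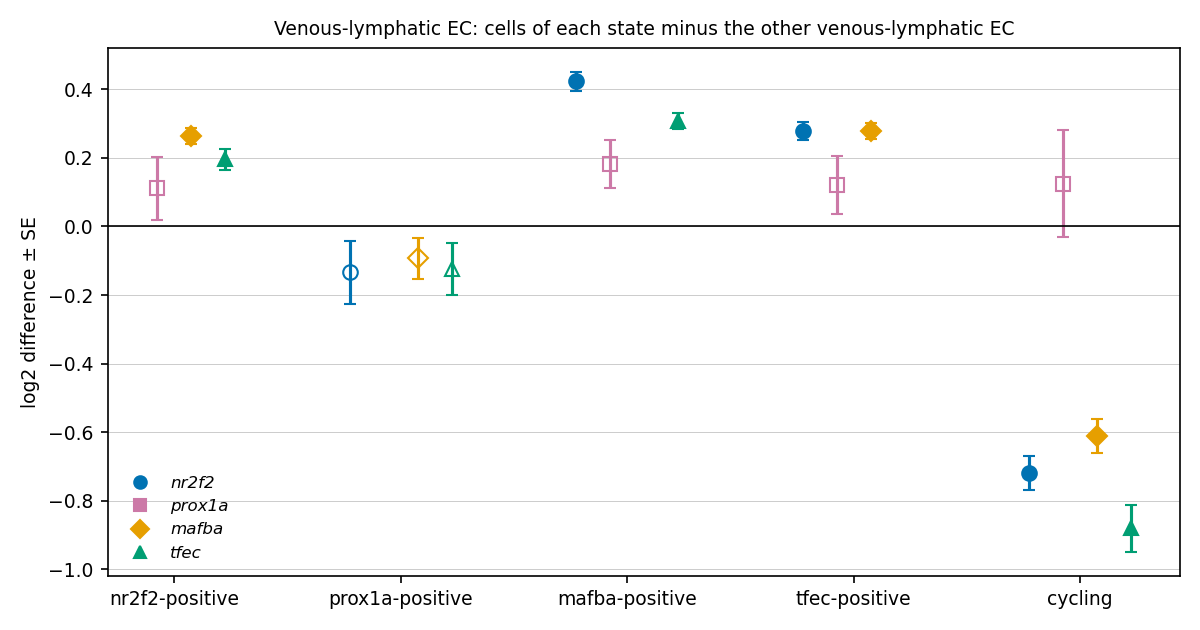
Log2 differences (± SE) of nr2f2, prox1a, mafba and tfec within venous-lymphatic ECs. Cells with a UMI of each member were set against those without, and cycling against non-cycling cells. Filled points passed the edgeR test at an adjusted p below 0.05. In the cell cycle contrast nr2f2 (-0.72), mafba (-0.61) and tfec (-0.88) were lower and prox1a (0.12) was not called.

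Between genotypes there was 1 library a group, so values were set side by side without a test, and intervals cover counting error only. Across venous-lymphatic ECs the median gene had a ratio to WT of 0.993 in the miR-128 mutant and of 1.12 and 1.26 in csnk1a1 and jag1b g3UTR embryos, and 9.34%, 18.9% and 35.9% of genes were at least 1.5-fold higher. The WT and miR-128 mutant matrices were made with Cell Ranger 5.0.0 and the g3UTR pair with 6.0.1, so version and genotype cannot be told apart. The summed pan-endothelial markers in this class were 5138 and 5251 CPM in WT and the miR-128 mutant and 8762 and 10577 CPM in the g3UTR pair.

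nr2f2 was 1.12 (95% interval 1.08 to 1.16), 1.52 (1.46 to 1.57) and 1.38 (1.33 to 1.43) times the WT level in mutant, csnk1a1 g3UTR and jag1b g3UTR embryos, respectively. Scaled by TMM in place of total UMIs, the g3UTR ratios were 1.37 and 1.14. prox1a was 1.34 (1.18 to 1.51), 1.20 (1.04 to 1.38) and 2.15 (1.92 to 2.42) times WT, with 1.78 in jag1b g3UTR under TMM. Among all genes compared in that library the prox1a ratio stood at the 84.7th percentile, and 35.9% of genes were at least 1.5-fold higher. In other ECs prox1a gave 1.09 (0.785 to 1.503), 1.63 (1.19 to 2.23) and 3.04 (2.28 to 4.06).

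By total UMIs, mafba was close to its WT level in every library, at 1.08 (1.06 to 1.103), 1.08 (1.06 to 1.103) and 1.01 (0.992 to 1.03) times WT. Over the alternative settings its ratio ran from 0.971 to 1.105 in csnk1a1 g3UTR and from 0.833 to 1.04 in jag1b g3UTR. In arterial ECs mafba was 0.911 (0.818 to 1.01), 0.757 (0.668 to 0.857) and 0.745 (0.658 to 0.843) times WT. By total UMIs, tfec in venous-lymphatic ECs was 1.15 (1.12 to 1.18), 1.01 (0.980 to 1.04) and 1.17 (1.14 to 1.21) times WT. Over the alternative settings its ratio ran from 0.907 to 1.02 in csnk1a1 g3UTR and from 0.966 to 1.20 in jag1b g3UTR. In venous-lymphatic ECs both genes lay below the median gene in csnk1a1 g3UTR and in jag1b g3UTR. None of the 4 genes reached 1.5-fold in the miR-128 mutant, nr2f2 did in csnk1a1 g3UTR and prox1a in jag1b g3UTR. The g3UTR pair shares its processing version, and there csnk1a1 g3UTR held 0.557 (0.487 to 0.637) times the prox1a level of jag1b g3UTR, a fold of at least 1.5 that 18.0% of genes reached in that direction, and 1.102 times its nr2f2.

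**Figure D5:**
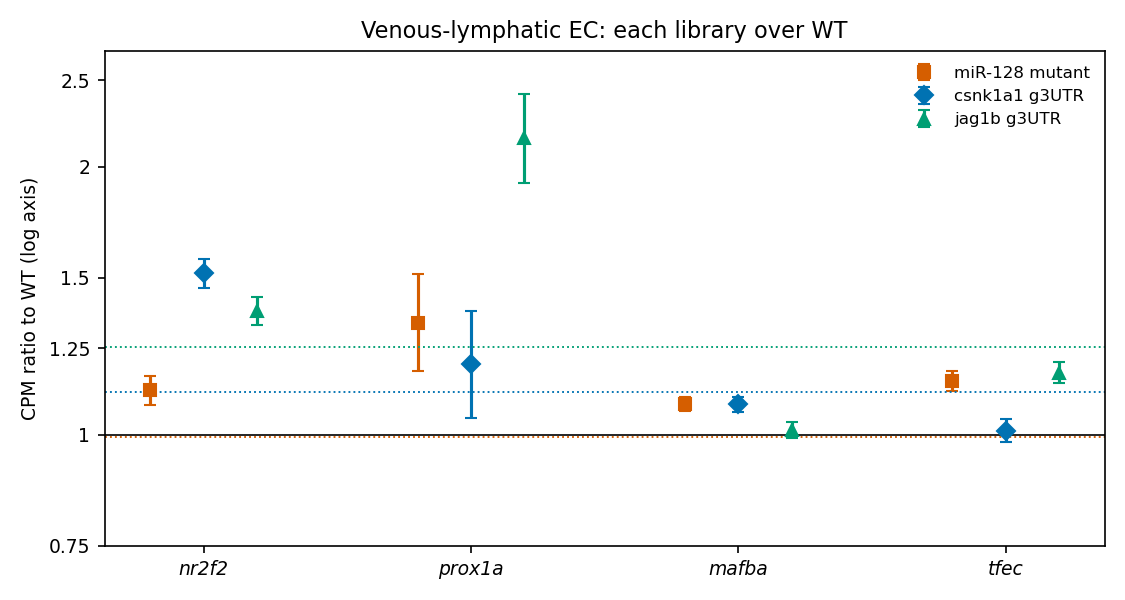
Ratio of each gene's level to WT in venous-lymphatic ECs, with the 95% counting interval, for the other libraries. The dotted line marks the median gene of each library (0.993, 1.12 and 1.26). prox1a in jag1b g3UTR (2.15) and nr2f2 in csnk1a1 g3UTR (1.52) lay highest, and there was 1 library a group.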

How the data were processed

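The authors deposited filtered matrices of unnormalized UMI counts (genes by cell barcodes), made with Cell Ranger (versions 5.0.0 and 6.0.1 per the file headers) on a custom zebrafish annotation. The genome build is not given in the sources used here. Cells with at least 200 genes, at most 35000 UMIs and at most 20% mitochondrial UMIs were kept; no doublet caller was run. Cells were thinned to 1500 UMIs (2049 shallower cells left out) and classed as ECs with at least 3 of 10 pan-endothelial markers and fewer than 3 of any of 10 other lists. Raw counts were summed per library and class and tested with edgeR 4.0.16 (R 4.3.3; TMM, quasi-likelihood, library block); the script was tested on simulated data. Depth is given in the report. DESeq2 1.42.0, other scalings, filters, gate minimums and depths, and leaving out each library were alternatives. Named genes were the members, the 5 genes of highest Pearson correlation on log2(CPM + 5), the 5 higher genes of lowest adjusted p per positive-cell comparison, and examples from 3 lists; members and lists were chosen with earlier results of these data known.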

Additional observations from a re-analysis of the deposited data

How the results depend on the processing

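The venous-lymphatic differences of the 4 tested genes kept their direction in every alternative run. Of 413 log2 differences recomputed, 10 changed sign, none past the threshold: in prox1a-positive cells mafba became 0.00885 under median-of-ratios scaling, 0.00947 in DESeq2 and 0.0993 without thinning, nr2f2 0.112 without thinning and 0.0393 at 3000 UMIs, and tfec 0.0510 without thinning; prox1a became -0.0686 in nr2f2-positive cells with a gate minimum of 4, and in cycling cells -0.00879 without thinning, -0.0127 at 3000 UMIs and -0.0193 to 0.332 when each library was left out. Classification at 3000 UMIs was chosen after seeing the data.

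Counts of calls depended on depth. At 750 UMIs they were 4617 against arterial, 5023 against tip and 2127 against haemogenic ECs, 3905 for the cell cycle, 301 for nr2f2-positive, 358 for mafba-positive and 249 for tfec-positive cells (prox1a was not run, for too few positive cells). Without thinning they were 10948 against haemogenic ECs, and 4769 (nr2f2), 4377 (mafba), 5899 (tfec) and 839 (prox1a) for positive cells; at 3000 UMIs 8688, 3285, 4218, 4397 and 746 in the same order. DESeq2 gave 701, 1093, 1182 and 67, a gate minimum of 4 gave 767 (nr2f2), 1414 (mafba) and 1036 (tfec), and median-of-ratios scaling 190 for prox1a. Leaving out each library gave 83 to 317 for prox1a. Without a UMI minimum, 11438, 12683 and 16577 genes passed 1.5-fold. The cause was not tested. The contrasts between classes and states of cells were paired by library through the library block of the main design. Genotypes could be neither paired nor tested, with 1 library a group. With 26 to 46 haemogenic ECs per library, low levels of prox1a, tfec and nr2f2 there were not resolved at this depth.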
